A study of Mus musculus with 6 samples.

Results

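The genes described here are 36 parts of the NF-kB pathway: the transcription factor subunits, their inhibitors, the kinases that release them, and the ubiquitin enzymes and adaptors that carry or end the signal. They were taken by symbol from a list of names drawn up with earlier results of these data known, and they are 36 of the 55335 mouse genes in the deposited table. RNA came from RAW 264.7 cells, a mouse macrophage line labelled wild type. In 3 libraries, LPS plus ultrasound, the cells received 200 ng/ml lipopolysaccharide (LPS) for 8 h and, within that time, 10 min of pulsed ultrasound at 50 mW/cm² and 1 MHz (20% duty cycle, 1 kHz pulse repetition, 200 µs pulses). In the other 3 libraries, LPS, the cells received the same LPS and no ultrasound. All 6 libraries thus carry the LPS stimulus, and unstimulated cells were not analysed here, so induction by LPS was not measured. Whether replicate libraries stand for separate cultures is not stated, so every p-value reflects the spread among these 6 libraries alone, which may be technical. Bulk RNA cannot tell fewer cells of a kind from less RNA per cell.

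LPS binds the TLR4 receptor complex on macrophages, and its adaptors activate the kinase TAK1 and the IKK complex. IKK marks the IkB proteins for destruction, which frees NF-kB dimers to enter the nucleus. A part of the genes that NF-kB then switches on encodes the pathway's own brakes, such as IkBα and the ubiquitin editor A20, while other parts of the pathway are made at a steady rate. From textbook knowledge of macrophages, 16 members were counted as LPS-inducible feedback genes (Nfkb1, Nfkb2, Rel, Relb, Nfkbia, Nfkbid, Nfkbie, Nfkbiz, Tnfaip3, Tnip1, Tnip3, Bcl3, Traf1, Birc3, Map3k8 and Ikbke) and the other 20 as constitutive parts.

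The DNA just before the members' starts was searched for the element that NF-kB binds. RefSeq (GRCm38.p6) windows, reaching from 250 bases before an annotated start to 50 bases after it, were found for 29 of the 36 members, 12 inducible and 17 constitutive. They were searched on both strands for the 10-base kB consensus (GGG, then A or G, 2 free bases, 2 of C or T, then CC). A palindromic site thus matches on both strands, and neighbouring matches can overlap. A match stood in at least 1 window of 9 of the 12 inducible members and of 4 of the 17 constitutive members, Tank, Map3k7, Traf3 and Cyld. Among all 27025 genes of that table, 9.55% had a match. A gene with several annotated starts has several windows and so more letters in which a match can occur, and over single windows the share was 8.46%. A second, rarer kB pattern was also searched and was met in 1.89% of all genes. It matched 4 of the 12 inducible members (33.3%) and 4 of the 17 constitutive members (23.5%). The classes thus lay closer together with it than with the consensus, to which all other matches given here refer. The inducible class was chosen as genes that LPS or NF-kB induces, so a high share of matches in it is not independent evidence. A match is a description of letters, and a window without one says nothing about binding. The 150 bases before the start are printed for 8 members, with the consensus matches in capitals. Nfkb2, Rel and Nfkbia are shown as members with a match that were lower in every ultrasound library, Ikbke and Tnip2 as members without a match that were also lower in every ultrasound library, Tnfaip3 as the gene of the main ubiquitin editor, Tnip1 because it has a match and nearly equal values in both groups, and Traf3 because it has a match and was higher in every ultrasound library.
Nfkb2 (chr19:46304587-46304736, plus strand): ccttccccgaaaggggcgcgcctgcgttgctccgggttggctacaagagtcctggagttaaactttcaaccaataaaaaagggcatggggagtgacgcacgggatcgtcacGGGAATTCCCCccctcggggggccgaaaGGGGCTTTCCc
Rel (chr11:23770970-23771119, minus strand): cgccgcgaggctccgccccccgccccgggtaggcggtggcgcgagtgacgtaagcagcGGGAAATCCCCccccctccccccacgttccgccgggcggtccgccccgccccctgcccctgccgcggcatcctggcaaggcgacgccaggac
Nfkbia (chr12:55492648-55492797, minus strand): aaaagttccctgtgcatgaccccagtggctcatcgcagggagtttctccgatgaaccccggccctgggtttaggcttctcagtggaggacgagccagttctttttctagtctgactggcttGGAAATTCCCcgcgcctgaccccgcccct
Ikbke (chr1:131279564-131279713, minus strand): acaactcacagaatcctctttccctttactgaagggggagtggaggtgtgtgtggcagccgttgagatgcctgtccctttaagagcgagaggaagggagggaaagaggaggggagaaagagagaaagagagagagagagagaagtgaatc
Tnip2 (chr5:34513980-34514129, minus strand): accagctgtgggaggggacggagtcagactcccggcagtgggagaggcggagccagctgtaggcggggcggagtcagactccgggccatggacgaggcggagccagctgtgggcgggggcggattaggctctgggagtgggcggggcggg
Tnfaip3 (chr10:19015411-19015560, minus strand): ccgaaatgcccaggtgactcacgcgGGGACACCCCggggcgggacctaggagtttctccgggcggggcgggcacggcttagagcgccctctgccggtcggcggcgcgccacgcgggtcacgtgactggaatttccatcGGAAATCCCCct
Tnip1 (chr11:54962941-54963090, minus strand): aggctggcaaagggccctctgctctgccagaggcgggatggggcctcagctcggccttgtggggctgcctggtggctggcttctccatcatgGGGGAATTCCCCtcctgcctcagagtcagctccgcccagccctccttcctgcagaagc
Traf3 (chr12:111166220-111166369, plus strand): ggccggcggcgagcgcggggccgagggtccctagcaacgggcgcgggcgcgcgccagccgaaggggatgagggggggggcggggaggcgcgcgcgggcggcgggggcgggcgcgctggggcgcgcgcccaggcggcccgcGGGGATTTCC
Neither Ikbke, Tnip2, Birc2 nor Rnf31, all lower in every ultrasound library, had a match in its windows, while Cyld had one. The printed Nfkb2 stretch, from 1 of its annotated starts, holds 2 separate runs of matches, which begin 39 and 11 bases before the start, and the single run of Nfkbia begins 29 bases before it. The run of Rel begins 92 bases before its start and that of Tnip1 58 bases before. The printed Tnfaip3 stretch, also from 1 of its annotated starts, has a match in its last 12 bases before the start and another that begins at base 125. Its other window had no match. The match of Traf3 fills the last 10 bases.

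Values are FPKM, fragments counted per length of transcript and per size of library, computed by the authors, with mean ± SD and n = 3 per group. Differences are LPS plus ultrasound minus LPS after taking log2(FPKM + 1), a scale on which changes of low genes come out too small, and carry the standard error of limma. Macrophage markers were present at 1 FPKM or more in 11 of 11 cases, with a summed level of 3003 to 3252 FPKM in LPS plus ultrasound and 2931 to 3175 FPKM in LPS. The sum is led by abundant markers such as Fcer1g (mean 899 FPKM), and single markers moved both ways, 6 above and 5 below 0. Adgre1 was at 15.5 ± 2.04 FPKM in LPS plus ultrasound and 25.1 ± 7.98 FPKM in LPS. Csf1r was at 71.7 ± 20.7 FPKM in LPS plus ultrasound and 50.9 ± 19.9 FPKM in LPS. Of 12 skeletal muscle markers, which were included because the extraction text describes rat muscle, Tnni2 alone reached 1 FPKM (mean 28.4 FPKM) and 4 were listed at 0 in all libraries. Their sum was 25.6 to 29.1 FPKM in LPS plus ultrasound and 29.3 to 32.3 FPKM in LPS. Nearly all of it was Tnni2, at 24.3 to 28.3 FPKM in LPS plus ultrasound and 28.4 to 31.0 FPKM in LPS. The part of muscle RNA in the results was not tested. The 7 fibroblast and 6 lymphocyte markers all stayed below 1 FPKM, and 1 of 5 dendritic cell markers, Itgax, passed 1 FPKM. LPS library 2 stood apart: on the first principal component, which held 41.9% of the variance, it lay at 28.8, against -17.7 to 2.03 for the other 5 libraries. LPS libraries 1 and 3 lay at 1.73 and 2.03, and ultrasound libraries 1 to 3 at -13.9, -0.957 and -17.7. Every ultrasound library thus lay below every LPS library on it, and library 2 was the highest of each group.

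All 36 members passed the filter of a mean of at least 1 FPKM, and none passed the threshold of the comparison. Of the 11270 genes tested, 0.0177% passed a Benjamini-Hochberg adjusted limma p of 0.05, and the members' adjusted limma p ran from 0.18 (Nfkbiz) to 0.99 (Nfkbie). At an unadjusted limma p below 0.05, 8 members were lower with ultrasound (22.2%, against 9.16% of all tested genes) and 2 were higher (5.56%, against 6.18%). The 8 were Nfkb2, Rel, Nfkbia, Nfkbiz, Ikbke, Tnip2, Rnf31 and Cyld, and the 2 were Traf3 and Map3k7. Every ultrasound library lay below every LPS library for 9 members, these 8 and Birc2, which is 25.0% against 13.4% of all tested genes. Traf3 and Map3k7 had all their ultrasound values above all their LPS values, which is 5.56% against 9.8%. Within same-numbered pairs, a pairing that the labels do not state, 17 members were lower with ultrasound in all 3 (47.2%, against 30.9%). Another 3 were higher in all 3 (8.33%, against 24.3%). The fitted difference was below 0 for 25 of the 36 members (69.4%, against 53.9% of all tested genes) and above 0 for 11 (30.6%, against 46.1%), and the median difference of the members was -0.10, against -0.02 over all tested genes.

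**Figure D1:**
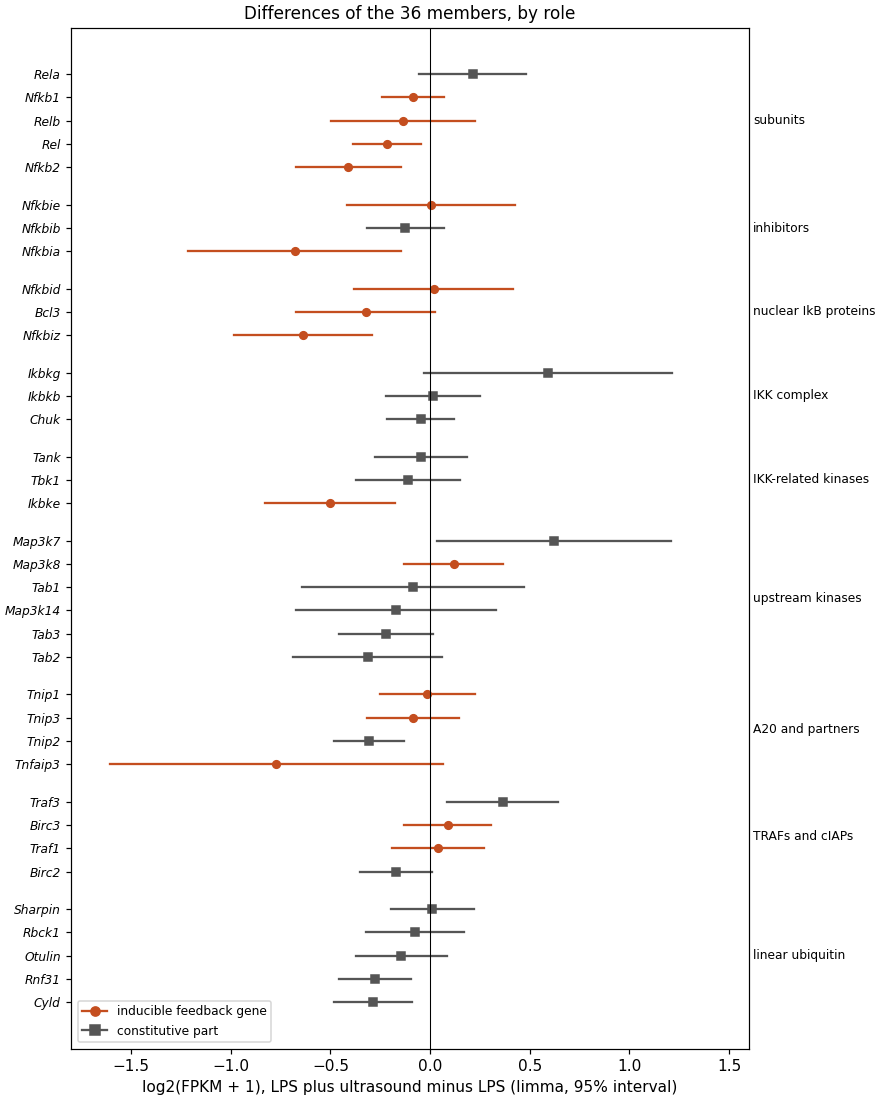
Difference between LPS plus ultrasound and LPS for each of the 36 genes on the log2(FPKM + 1) scale, with the 95% interval of the limma fit, grouped by role; circles are inducible feedback genes and squares constitutive parts. The points run from -0.77 for Tnfaip3 to 0.62 for Map3k7.

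Without LPS library 2, 8 members were lower at an unadjusted limma p below 0.05 (22.2%, against 6.34% of all tested genes). They were the same 8 as before. These were picked at that limit with all libraries, most of which the refit shares, so their staying is largely built in. Rel came closest to leaving, with a 95% interval of -0.32 to -0.00055. Of the higher members 1, Traf3, met that limit, against 4.02% of all tested genes. The same 8 also stayed below an unadjusted limma p of 0.05 with the replicate number as a block, a fit of the same libraries. In that fit 12 members were lower and 1, Traf3, higher at an unadjusted p below 0.05 (17.1% and 12.6% of all tested genes), and 0 passed after adjustment, against 0.0355% of all genes higher and 0.0799% lower, the smallest adjusted limma p being 0.057 for Nfkbiz. Without ultrasound library 1, Rel and Nfkbia no longer met it. With limma's sample weights, Nfkbiz passed after adjustment (limma adjusted p = 0.035) as the only member, where 1.35% of all tested genes were called lower and 0.63% higher.

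The 5 subunits are the proteins that bind DNA. Nfkb2 (ENSMUSG00000025225) encodes p100, which is cut to p52 in the alternative pathway. It had 96.1, 76.2 and 96.7 FPKM in the 3 libraries of LPS plus ultrasound, against 109.9, 128 and 119 FPKM in LPS. The groups did not overlap, and the difference was -0.41 ± 0.11 (limma adjusted p = 0.22). It was -0.36 without LPS library 2 and -0.25 without both libraries numbered 2. Exons of the lncRNA AC114539.1 on the opposite strand share 531 bases with Nfkb2 exons. That gene ran the other way, at 16.1 to 18.8 FPKM in LPS plus ultrasound and 9.27 to 15.1 FPKM in LPS, and with the strand of the reads unknown, their sharing between both genes is uncertain. Psd, also on the opposite strand, shares 299 bases with Nfkb2 exons. It overlapped between groups, at 4.59 to 8.14 FPKM in LPS plus ultrasound and 5.97 to 8.40 FPKM in LPS.

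Rel (ENSMUSG00000020275) encodes c-Rel, a subunit prominent in immune cells. It had 43.6, 44.7 and 45.8 FPKM in LPS plus ultrasound, against 50.8, 56.2 and 49.4 FPKM in LPS. All 3 ultrasound libraries lay within a span narrower than that of the LPS libraries and below it, with a difference of -0.22 ± 0.07 (limma adjusted p = 0.26). Nfkb1, the gene of p105 and p50, had 42.7, 41.3 and 44.7 FPKM in LPS plus ultrasound, against 45.8, 44.1 and 46.9 FPKM in LPS. It was lower in each of the 3 same-numbered pairs by a small amount, but the groups overlapped and the difference was -0.09 ± 0.07.

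Relb, the partner of p52, had 9.79, 8.65 and 12.5 FPKM in LPS plus ultrasound, against 10.2, 13.5 and 10.5 FPKM in LPS. Rela, the gene of p65 and the constitutive subunit of the main dimer (ENSMUSG00000024927), had 50.5, 48.3 and 47.0 FPKM in LPS plus ultrasound, against 42.2, 35.5 and 48.5 FPKM in LPS. Both overlapped between groups, at -0.14 ± 0.15 for Relb and 0.21 ± 0.11 for Rela. Without LPS library 2 the differences were -0.02 for Relb and 0.10 for Rela, and Relb was at -0.27 without ultrasound library 3 and -0.03 without ultrasound library 2. Rela was the one subunit gene with a difference above 0, and its lowest value was in LPS library 2. By mean FPKM over the 6 libraries, a value per length, Nfkb2 stood highest at 104.3, Rel, Rela and Nfkb1 followed at 48.4, 45.3 and 44.2, and Relb was lowest at 10.8. The ranges of Rel, Rela and Nfkb1 overlapped.

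**Figure D2:**
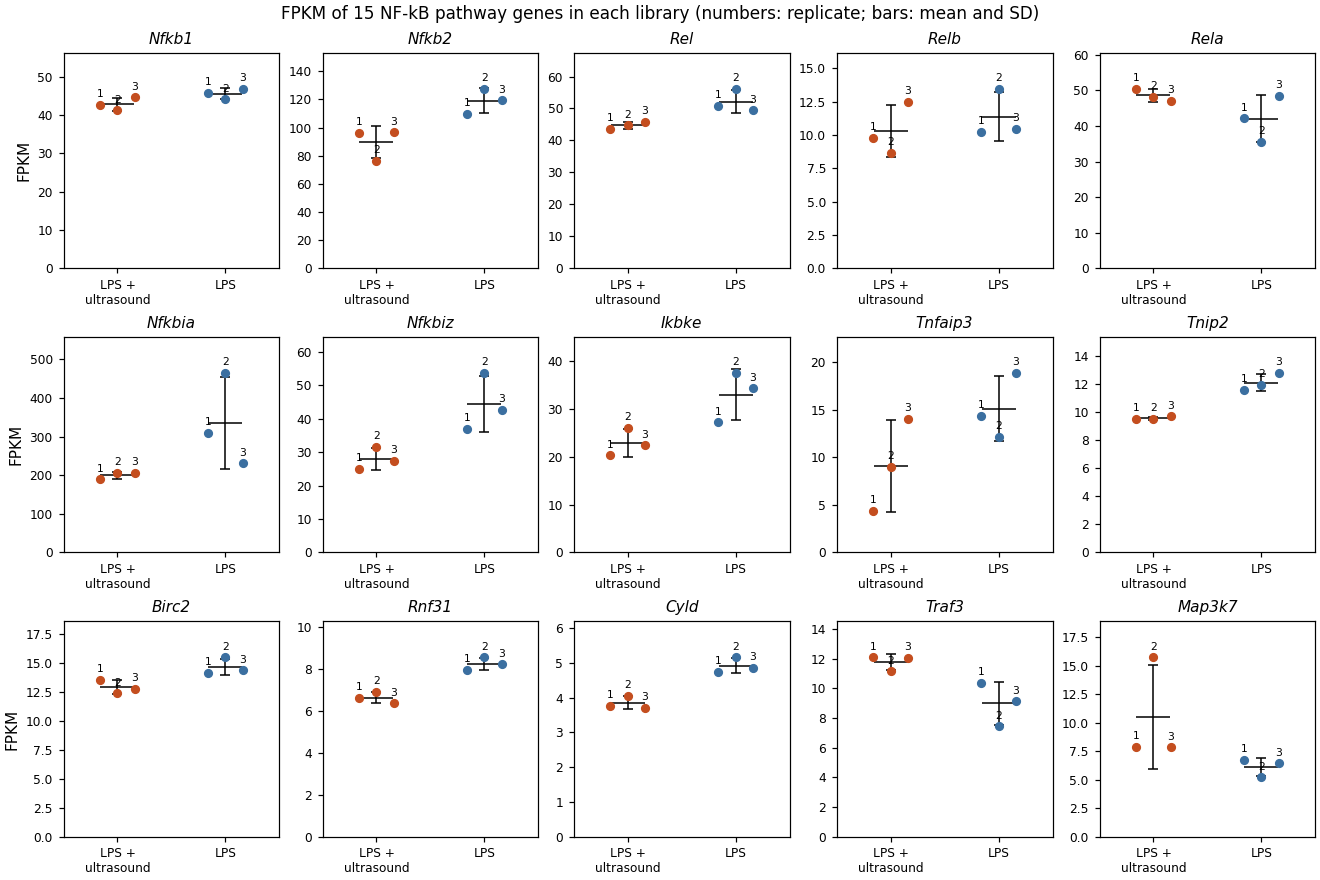
FPKM in each library for the 5 subunit genes, Tnfaip3 and the 9 further genes with separate groups; points are libraries with their replicate number, and bars give mean and SD (n = 3). Ultrasound libraries lie below all LPS libraries for Nfkb2, Rel, Nfkbia, Nfkbiz, Ikbke, Tnip2, Birc2, Rnf31 and Cyld, and above them for Traf3 and Map3k7.

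IkB proteins hold NF-kB dimers in the cytoplasm. Nfkbia (ENSMUSG00000021025) encodes IkBα, the inhibitor that NF-kB itself replaces after each round of activation, and was the member with the highest mean, 268 FPKM. It had 189.7, 206 and 206 FPKM in LPS plus ultrasound, against 309, 465 and 231 FPKM in LPS. The ultrasound values were close together and all lay below the LPS values, which differed 2.02-fold among themselves. The difference was -0.68 ± 0.23 (limma adjusted p = 0.25), and it was -0.41 without LPS library 2 and -0.92 without LPS library 3. Nfkbib, the gene of IkBβ, lay at 64.4 to 70.8 FPKM in LPS plus ultrasound and at 68.7 to 80.6 FPKM in LPS (-0.12 ± 0.08). Nfkbie, the gene of IkBε, had 17.0, 14.0 and 21.4 FPKM in LPS plus ultrasound, against 16.4, 14.5 and 21.0 FPKM in LPS. Its values matched closely within same-numbered pairs while they spread 1.53-fold and 1.45-fold within the groups, and the 95% interval of its difference ran from -0.42 to 0.43.

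The nuclear IkB proteins work with NF-kB on DNA and do not hold it back in the cytoplasm. Nfkbiz (ENSMUSG00000035356) encodes IkBζ, which is needed for a late set of LPS-induced genes. It had 25.0, 31.6 and 27.3 FPKM in LPS plus ultrasound, against 37.0, 53.6 and 42.6 FPKM in LPS. The groups did not overlap, and library 2 was the highest of each. The difference was -0.64 ± 0.15 (limma adjusted p = 0.18), and it was -0.50 without LPS library 2. Bcl3, which binds p50 and p52 dimers, had 8.47, 9.81 and 6.47 FPKM in LPS plus ultrasound, against 11.7, 9.44 and 10.3 FPKM in LPS (-0.32 ± 0.15). Its groups overlapped through the pair of libraries numbered 2, and the difference was -0.18 without ultrasound library 3 and -0.51 without that pair. Nfkbid, the gene of IkBNS, had 12.5, 10.8 and 15.1 FPKM in LPS plus ultrasound, against 12.3, 10.1 and 15.6 FPKM in LPS, with a 95% interval of -0.38 to 0.42.

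The IKK complex consists of the kinases IKKβ (Ikbkb) and IKKα (Chuk) and the scaffold NEMO (Ikbkg). Ikbkb lay at 2.82 to 3.58 FPKM in LPS plus ultrasound and 3.01 to 3.32 FPKM in LPS, and Chuk at 18.2 to 18.8 FPKM in LPS plus ultrasound and 18.5 to 20.2 FPKM in LPS. The 95% intervals of their differences, -0.22 to 0.25 and -0.21 to 0.12, were narrow and spanned 0. Ikbkg had 6.67, 7.30 and 2.97 FPKM in LPS plus ultrasound, against 3.04, 3.47 and 3.08 FPKM in LPS. Ultrasound libraries 1 and 2 thus stood above all others, and ultrasound library 3 below all LPS libraries (0.59 ± 0.27, limma adjusted p = 0.35). The difference was 0.93 without ultrasound library 3 (limma adjusted p = 0.18) and 0.40 without ultrasound library 2. In GENCODE M21, Ikbkg has 18 transcripts of 278 to 6994 bases, and its exons share 418 bases with G6pdx on the opposite strand, which had 90.9, 102 and 92.8 FPKM in LPS plus ultrasound and 76.2, 78.2 and 77.3 FPKM in LPS. The part of isoform assignment or of G6pdx reads in the Ikbkg values was not tested.

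The IKK-related kinases and their scaffold TANK act mainly on interferon regulatory factors. Ikbke (ENSMUSG00000042349), the inducible kinase IKKε, had 20.2, 26.0 and 22.4 FPKM in LPS plus ultrasound, against 27.1, 37.4 and 34.3 FPKM in LPS. The groups were separate by a narrow gap between ultrasound library 2 and LPS library 1, and the difference was -0.50 ± 0.14 (limma adjusted p = 0.22, or 0.058 when blocked). The antisense gene Gm28913, which shares 65 exonic bases with Ikbke, was also lower in each ultrasound library, at 3.11 to 5.26 FPKM against 6.34 to 9.80 FPKM in LPS. A second antisense gene, Gm28914, which shares 159 bases, overlapped between groups at 1.28 to 2.10 FPKM in LPS plus ultrasound and 1.38 to 2.51 FPKM in LPS. Its constitutive relative Tbk1 had 22.7 to 28.6 FPKM in LPS plus ultrasound and 24.6 to 30.0 FPKM in LPS (-0.11 ± 0.11). Tank had 32.6 to 38.5 FPKM in LPS plus ultrasound and 34.3 to 40.8 FPKM in LPS (-0.05 ± 0.10).

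Upstream kinases feed IKK. Map3k7 (ENSMUSG00000028284) encodes TAK1, which is activated on ubiquitin chains through the TAB proteins. It had 7.86, 15.7 and 7.83 FPKM in LPS plus ultrasound, against 6.73, 5.21 and 6.45 FPKM in LPS. All ultrasound libraries lay above the LPS libraries, but ultrasound library 2 had 2.01 times the level of the lowest ultrasound library. The difference of 0.62 ± 0.25 (limma adjusted p = 0.31) was 0.32 without that library and 0.22 without both libraries numbered 2. Of its partners, Tab2 had 47.0, 36.03 and 47.2 FPKM in LPS plus ultrasound, against 65.6, 52.5 and 45.1 FPKM in LPS (-0.31 ± 0.16), with groups that overlapped through LPS library 3, and -0.17 without LPS library 1 or -0.19 without ultrasound library 2. Tab3 had 6.02 to 7.08 FPKM in LPS plus ultrasound and 7.07 to 8.44 FPKM in LPS, lower in each of the 3 pairs (-0.22 ± 0.10). Tab1 was the lowest member, with a mean of 2.74 FPKM, and its values overlapped widely (-0.09 ± 0.24). Map3k8, the gene of TPL2, which p105 binds and holds inactive, had 11.1 to 13.9 FPKM in LPS plus ultrasound and 10.5 to 12.4 FPKM in LPS (0.12 ± 0.10). Map3k14, the gene of NIK in the alternative pathway, had 7.66, 6.27 and 9.76 FPKM in LPS plus ultrasound, against 7.86, 7.23 and 12.3 FPKM in LPS (-0.17 ± 0.21, from -0.32 to 0.04 with 1 library left out).

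A20, encoded by Tnfaip3 (ENSMUSG00000019850), removes activating ubiquitin chains and is a main brake of NF-kB, with the ABIN proteins (Tnip1, Tnip2 and Tnip3) as partners. Tnfaip3 had 4.38, 8.98 and 14.0 FPKM in LPS plus ultrasound, against 14.4, 12.2 and 18.9 FPKM in LPS. Each ultrasound library was below its same-numbered LPS library, but the groups overlapped and the ultrasound values spread 3.20-fold. The difference of -0.77 ± 0.35 (limma adjusted p = 0.36) was the lowest of the members, and it was -0.38 without ultrasound library 1. Tnip2 (ENSMUSG00000059866), the gene of ABIN-2, had 9.52, 9.51 and 9.70 FPKM in LPS plus ultrasound, against 11.6, 11.9 and 12.8 FPKM in LPS. Here the groups were clearly apart and the values within them close, and the difference of -0.31 ± 0.07 (limma adjusted p = 0.19) was -0.32 without LPS library 2. Tnip1, the gene of ABIN-1 and the second most abundant member, had 153, 139.7 and 166 FPKM in LPS plus ultrasound, against 151, 140.1 and 172 FPKM in LPS, with a 95% interval of -0.25 to 0.22. Tnip3 lay at 9.54 to 11.3 FPKM in LPS plus ultrasound and 10.3 to 12.01 FPKM in LPS (-0.09 ± 0.10).

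TRAF3 and the cIAP ubiquitin ligases (Birc2 and Birc3) sit in one complex that keeps NIK at a low level. Traf3 (ENSMUSG00000021277) had 12.1, 11.1 and 12.1 FPKM in LPS plus ultrasound, against 10.4, 7.44 and 9.13 FPKM in LPS. It was higher in all 3 ultrasound libraries, by 0.36 ± 0.12 (limma adjusted p = 0.25), and by 0.25 without LPS library 2, its lowest library. Birc2 (ENSMUSG00000057367), the gene of cIAP1, had 13.5, 12.4 and 12.8 FPKM in LPS plus ultrasound, against 14.2, 15.5 and 14.3 FPKM in LPS (-0.17 ± 0.08, limma adjusted p = 0.34). Its groups were separate, while those of the inducible Birc3, the gene of cIAP2, overlapped at 47.7 to 57.0 FPKM in LPS plus ultrasound and 47.6 to 53.7 FPKM in LPS (0.09 ± 0.09). Traf1, an inducible adaptor of the cIAPs, had 33.8, 39.3 and 33.2 FPKM in LPS plus ultrasound, against 33.4, 38.0 and 31.9 FPKM in LPS, with a 95% interval of -0.19 to 0.27.

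Linear ubiquitin chains, which recruit IKK, are made by the LUBAC complex of HOIP (Rnf31), SHARPIN and HOIL-1 (Rbck1) and removed by OTULIN and CYLD. Rnf31 (ENSMUSG00000047098), the catalytic subunit, had 6.63, 6.91 and 6.37 FPKM in LPS plus ultrasound, against 7.97, 8.56 and 8.23 FPKM in LPS. Its groups were separate with little spread in either (-0.28 ± 0.08, limma adjusted p = 0.22). Rnf31 shares 123 exonic bases with its same-strand neighbour Irf9, which overlapped between groups at 14.5 to 16.4 FPKM in LPS plus ultrasound and 13.8 to 16.1 FPKM in LPS. Cyld (ENSMUSG00000036712) had 3.77, 4.06 and 3.71 FPKM in LPS plus ultrasound, against 4.74, 5.16 and 4.86 FPKM in LPS. It was lower in every ultrasound library, with a difference of -0.29 ± 0.08 (limma adjusted p = 0.22), so that the maker and a remover of linear chains stood apart in the same direction. Otulin had 43.7 to 52.1 FPKM in LPS plus ultrasound and 48.4 to 56.5 FPKM in LPS (-0.14 ± 0.10). Sharpin and Rbck1, the accessory subunits, had 95% intervals of -0.20 to 0.22 and -0.32 to 0.17.

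The inducible and the constitutive genes had nearly the same median difference, -0.11 over the 16 inducible members and -0.10 over the 20 constitutive members, against -0.02 over all tested genes. The difference was below 0 for 11 of 16 and for 14 of 20. Groups were separate and lower for 5 inducible members (31.2%) and 4 constitutive members (20.0%), set against 13.4% of all tested genes. They were separate and higher for 0 inducible and 2 constitutive members (10.0%), set against 9.8% of all tested genes. Single values went further down among the inducible genes, a contrast that was not tested. Levels differed too: the median of the members' mean FPKM was 31.4 for the inducible and 11.7 for the constitutive members. On the log2(FPKM + 1) scale, changes of low genes come out too small. The 6 lowest differences, of Tnfaip3, Nfkbia, Nfkbiz, Ikbke, Nfkb2 and Bcl3, were all of inducible genes and ran from -0.77 to -0.32, while the lowest constitutive one was -0.31 for Tab2. Of these 6, Tnfaip3 and Bcl3 had overlapping groups. The other inducible genes included 7 between -0.09 and 0.09, among them Nfkbie, Nfkbid, Tnip1 and Traf1. At the upper end, the highest differences were all of constitutive genes, at 0.62 for Map3k7, 0.59 for Ikbkg, 0.36 for Traf3 and 0.21 for Rela. The groups of Ikbkg and Rela overlapped. With Nfkbib, Birc2, Cyld and Tank counted as inducible, the medians were -0.13 and -0.08.

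Library by library, the median deviation of the inducible members from their mean over the 6 libraries was -0.10, -0.13 and -0.03 in LPS plus ultrasound libraries 1 to 3, and -0.01, 0.12 and 0.12 in LPS libraries 1 to 3. For the constitutive members it was -0.02, -0.04 and -0.11 in LPS plus ultrasound, against 0.08, 0.05 and -0.02 in LPS. Among the LPS libraries, library 2 was the highest for 10 of 16 inducible and 8 of 20 constitutive members, against 38.3% of all tested genes. It was the highest of all 6 for 13 members (36.1%, against 27.6%), and ultrasound library 2 was the highest of the ultrasound libraries for 13 (36.1%, against 45.4%). LPS library 2 was the highest of the LPS libraries for Nfkb2, Rel, Nfkbia, Nfkbiz and Ikbke, the 5 inducible members with separate groups. Libraries 1, 2 and 3 came in the same order in both groups for 8 inducible and 5 constitutive members, against 36.8% of all tested genes.

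**Figure D3:**
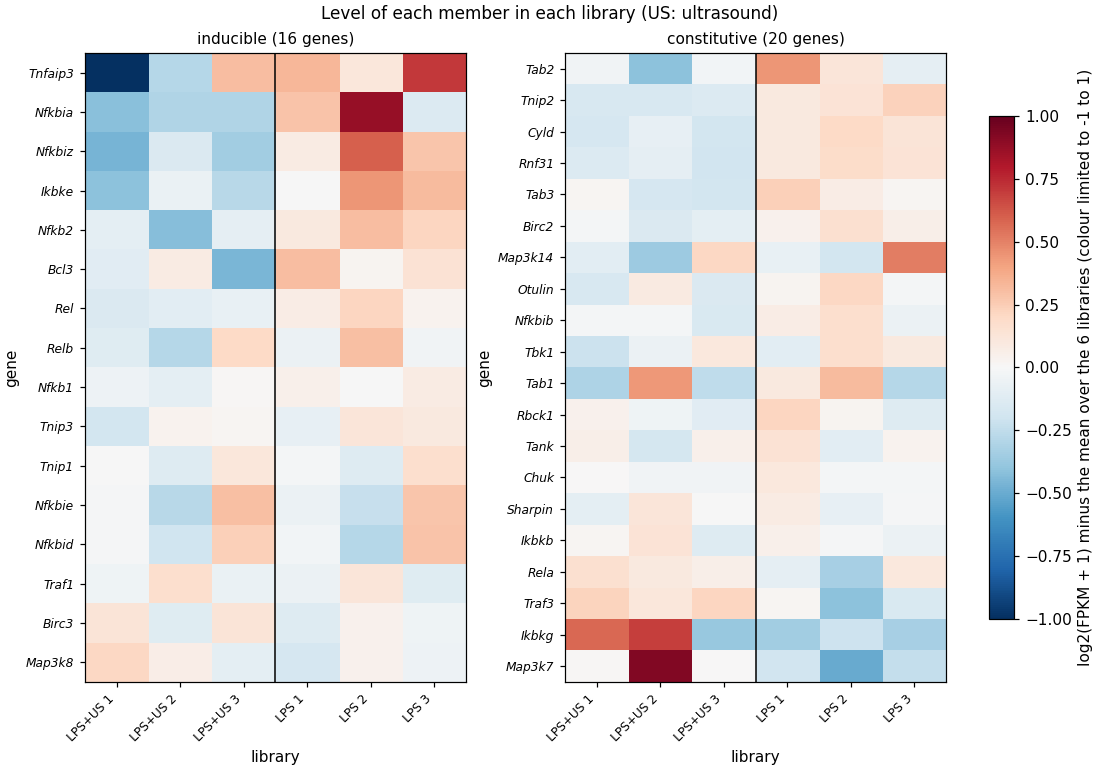
Level of each gene in each library as log2(FPKM + 1) minus its mean over the 6 libraries, with ultrasound libraries left of LPS libraries and genes ordered by difference within each class. Colours stop at -1 and 1, which clips Tnfaip3 in ultrasound library 1. LPS library 2 is the highest library for Nfkbia and Nfkbiz, and Nfkbie and Nfkbid are higher in library 3 of both groups than in library 2.

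Ratios of partner genes within a library remove what scales a whole library. Of the 10 ratios compared, 7 were separate between groups, each at an exact two-sided permutation p of 0.1, the smallest that 3 against 3 allows, and 0.14 after adjustment over the 10. The share among ratios of other gene pairs was not computed. Of single tested genes, 13.4% were separate and lower and 9.8% separate and higher. Several of the 7 share Rela or hold members already separate by themselves, so they are not independent results. Nfkbia stood at 3.76, 4.26 and 4.37 times Rela in LPS plus ultrasound, against 7.32, 13.1 and 4.75 times in LPS. Rel per Rela was 0.921 ± 0.0558 in LPS plus ultrasound and 1.27 ± 0.287 in LPS, and Nfkb1 per Rela was 0.884 ± 0.0576 in LPS plus ultrasound and 1.10 ± 0.138 in LPS. Nfkbia, Rel and Nfkb1 were thus each lower relative to Rela in every ultrasound library than in any LPS library. Nfkb2 per Nfkb1 was 2.09 ± 0.212 in LPS plus ultrasound and 2.61 ± 0.253 in LPS. Ikbke was below Tbk1 in 2 of 3 ultrasound libraries, at 0.891, 1.03 and 0.782 times its level, and above it in every LPS library, at 1.10, 1.25 and 1.202 times. Birc3 per Birc2 ran the other way, at 4.18 ± 0.303 in LPS plus ultrasound and 3.45 ± 0.0802 in LPS. Tnip1 per Tnfaip3 was 34.8, 15.6 and 11.8 in LPS plus ultrasound, against 10.5, 11.5 and 9.13 in LPS. Chuk per Ikbkb, 2 kinases of one complex, was 5.79 ± 0.679 in LPS plus ultrasound and 6.04 ± 0.136 in LPS and overlapped, as did Nfkbib per Rela and Nfkbie per Rela.

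**Figure D4:**
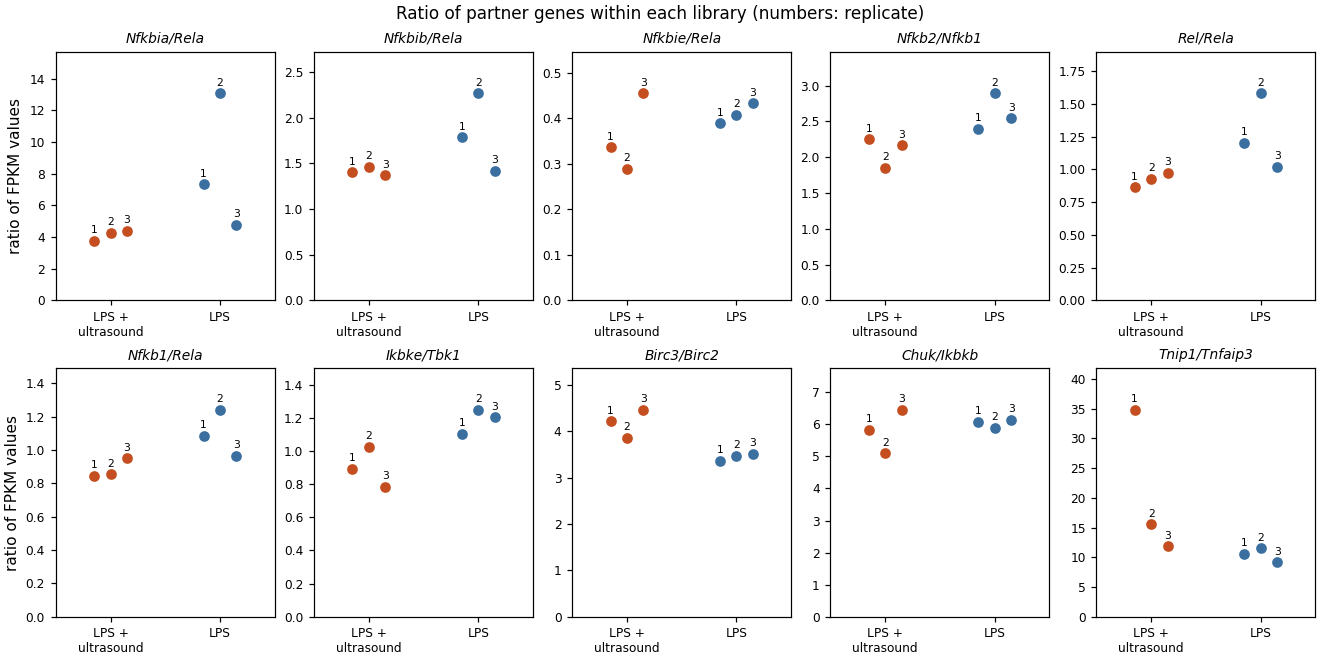
Ratio of the FPKM values of 10 pairs of partner genes in each library; points are libraries with their replicate number. Nfkbia per Rela is 3.76 to 4.37 in LPS plus ultrasound and 4.75 to 13.1 in LPS, with LPS library 2 highest.

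Other genes of the pathway give the setting. Of 36 further signalling parts, 35 were tested, and 0 passed the threshold in either direction. At an unadjusted limma p below 0.05, 5 were lower (14.3%, against 9.16% of all tested genes) and 2 higher (5.71%, against 6.18%), and their median difference was -0.04, against -0.02 over all tested genes. The 4 with the smallest p were all lower in every ultrasound library. Irak2, a kinase of the TLR adaptor complex, had 14.4, 14.6 and 14.2 FPKM in LPS plus ultrasound, against 20.1, 28.4 and 21.1 FPKM in LPS (-0.64 ± 0.13, limma adjusted p = 0.17). Malt1, a paracaspase that cleaves A20 and CYLD, had 4.08, 3.85 and 5.06 FPKM in LPS plus ultrasound, against 6.56, 11.6 and 8.09 FPKM in LPS (-0.84 ± 0.19, limma adjusted p = 0.18). The adaptor gene Card9 and the ubiquitin ligase gene Peli1 had differences of -0.33 ± 0.08 and -0.25 ± 0.08.

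Of 36 NF-kB target genes outside the pathway, 34 were tested and 0 passed the limma threshold. At an unadjusted limma p below 0.05, 10 were lower (29.4%, against 9.16% of all tested genes) and 0 higher (against 6.18%). The difference was below 0 for 30 of 34 (88.2%, against 53.9%), with a median of -0.42, and of -0.32 without LPS library 2. LPS library 2 was the highest of the LPS libraries for 25 of 34 (73.5%, against 38.3%). The smallest p belonged to Cflar, which encodes the caspase-8 inhibitor c-FLIP, at 78.5 ± 3.45 FPKM in LPS plus ultrasound and 107 ± 12.2 FPKM in LPS. Ptgs2, the survival gene Bcl2l1 and the cytokine gene Csf2 followed, with differences of -1.67 ± 0.41, -0.54 ± 0.15 and -0.54 ± 0.16. The list was drawn up with earlier results of these libraries known, so its direction is not independent evidence. With the replicate block, 2 of these target genes passed limma's adjusted threshold, both lower (0.0799% of all tested genes were). In that fit 0 of the other signalling parts passed, and 9 were lower at an unadjusted limma p below 0.05 (25.7%, against 17.1% of all tested genes).

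**Figure D5:**
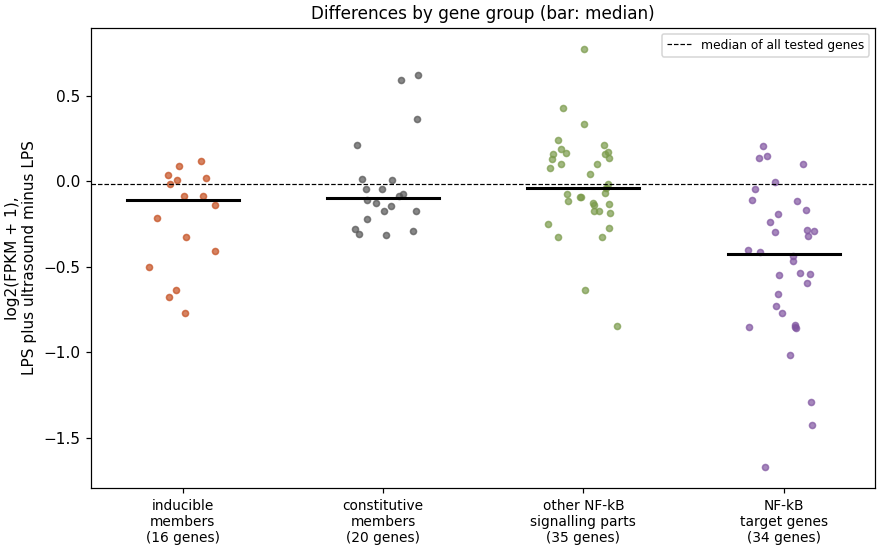
Difference between LPS plus ultrasound and LPS on the log2(FPKM + 1) scale for single genes of each group, with the median as a bar and the median of all tested genes as a dashed line. The medians are -0.11, -0.10, -0.04 and -0.42 for inducible members, constitutive members, other signalling parts and target genes.

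Sequence and difference can be set side by side for the 29 members with a promoter window. The 13 members with a kB match had a median difference of -0.09, and the 16 without one -0.13. Groups were separate and lower for 4 of the 13 (30.8%) and 4 of the 16 (25.0%), against 13.4% of all tested genes. They were separate and higher for 2 of the 13, Traf3 and Map3k7, and 0 of the 16, against 9.8% of all tested genes, and no difference between members with and without a match was tested. Tnip1, with a match run of 12 bases, was one of 7 inducible members between -0.09 and 0.09.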

How the data were processed

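Poly(A) RNA was sequenced as paired ends, per the labels' protocols. The authors deposited FPKM values per mouse Ensembl gene and library. Aligner, quantifier and mouse build are not given. Per the labels, the extracted tissue was rat muscle, and a rat build (mRatBN7.2) stands in the submitters' processing notes, yet the design text names RAW 264.7 cells and all 55335 identifiers are mouse ones. GENCODE M21 gave overlaps, and 55154 identifiers had a symbol. In each library 39.8% to 44.4% of low values lay near whole steps, too few to recover counts, so depth is unknown.

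The test was limma 3.58.1 (R 4.3.3), two-sided, with log2(FPKM + 1), variance trend and robust moderation, over the 11270 genes with an average of 1 FPKM or more (44065 left out), with a Benjamini-Hochberg threshold of 0.05. It was tested on simulated data. FPKM is relative to the size of each library, so abundant genes that move shift others. The FPKM values of a library summed to 278871 to 292200. Same-numbered libraries deviated together from their group means (correlations across genes 0.18, 0.44 and 0.41, against -0.40 to 0.06 for differently numbered ones). The numbers were taken to pair them from these same values, since the labels state no pairing. The unblocked fit was the one reported. Members and lists were chosen with earlier results of these data known. All members are named, with values in each library for subunits, Nfkbia, Tnfaip3, members with separate groups or an unadjusted p below 0.05, and some others. Up to 4 genes with the smallest p are named from each further list. Alternatives covered pseudocount, filter, scaling, moderation, sample weights, replicate block, class assignment and left-out libraries.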

Additional observations from a re-analysis of the deposited data

How the results depend on the processing

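Under 16 alternatives, 25 of the 36 members kept the sign of their difference where tested, and the medians of both classes moved by less than the spread between libraries. Nfkbiz with sample weights (-0.67, limma adjusted p = 0.035) was the 1 member that passed in any of them, among 223 genes. Of the genes tested, 2 passed in the main comparison, 13 with the replicate block, 5 with libraries scaled to the same sum, 1 at a mean of at least 5 FPKM, 6 without both libraries numbered 2, and 2 to 8 with 1 library left out, of which 8 without LPS library 2 and 4 without LPS library 1 or 3. Paired by the replicate block, 0 members passed. At an unadjusted limma p below 0.05, 40.3% of the genes that met it were higher, or 30.2% after scaling to the same sum, 48.8% after median-ratio scaling and 48.6% after quantile normalization.

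The 11 members whose sign turned had differences between -0.17 and 0.04 in the main comparison. With median-ratio scaling Tnip1 came to 0.0050. With the same sum Nfkbie came to -0.013, Nfkbid to -0.00025, Ikbkb to -0.0019 and Sharpin to -0.0093. Sample weights gave -0.024 for Nfkbie, -0.035 for Nfkbid and -0.10 for Sharpin. Without both libraries numbered 2, Relb came to 0.088, Nfkbid to -0.014, Ikbkb to -0.051 and Sharpin to -0.085. With 1 library left out, differences ran from -0.14 to 0.15 for Nfkbie, -0.12 to 0.17 for Nfkbid, -0.049 to 0.082 for Ikbkb, -0.11 to 0.029 for Tank, -0.32 to 0.040 for Map3k14, -0.33 to 0.050 for Tab1, -0.082 to 0.065 for Tnip1, -0.035 to 0.11 for Traf1, -0.047 to 0.062 for Sharpin and -0.16 to 0.014 for Rbck1. The cause was not tested. Without counts the precision of low genes such as Tab1 and Ikbkb is unknown.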
